A study of Homo sapiens with 6 samples.

Results

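A set of 9 genes of the major histocompatibility complex (MHC) class I pathway was examined with and without reduction of SOX2 in PA1, an established cell line from a human ovarian teratocarcinoma. They were taken by name from a table of 59653 gene symbols: the heavy chain genes HLA-B, HLA-C and HLA-E, the light chain gene B2M, the peptide transporter genes TAP1 and TAP2, the peptide editor gene TAPBP, and the immunoproteasome subunit genes PSMB8 and PSMB9. All 9 were in the table, and 8 of the 9 passed the filter on low counts. PA1 cells, labelled wildtype in every library, were transfected in adherent culture with control siRNA or with siRNA to SOX2. A pair of SOX2 siRNAs is named, and whether each library received both is not given in the sources used here. After 24 h the cells were moved to coated, non-adherent plates, and RNA was taken after a further 72 h of growth in suspension. Each group had 3 libraries of 1 cell line, and nothing says that they came from separate cultures, so the p-values measure the spread between these libraries, which may be technical.

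Class I molecules display peptides from inside the cell to CD8 T cells. Proteins are cut by the proteasome, in which PSMB8, PSMB9 and PSMB10 can replace the standard catalytic subunits PSMB5, PSMB6 and PSMB7. The TAP1-TAP2 transporter carries the peptides into the endoplasmic reticulum (ER), where tapasin, the product of TAPBP, holds the empty class I molecule at the transporter until a suitable peptide is bound. Most of these genes are induced by interferon, through IRF factors and the class I transactivator NLRC5, and pluripotent and embryonal tumour cells are known for low class I display.

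Sequencing depth was 25152313 to 32753184 counts per library, so the floor of 3 counts equalled 0.0909 to 0.1197 CPM (counts per 1000000, on the scaled library size). The targeted gene checked the labels: SOX2 had 8093, 6647 and 7396 counts in control libraries and 1564, 1776 and 1513 in SOX2 siRNA libraries, or -2.28 as log2 fold change (SE 0.0437), with an adjusted p of 5.97e-16 in edgeR. Of 14 markers of pluripotent cells 13 were tested, with POU5F1 at 301 ± 18.6, LIN28A at 706 ± 3.61 and NANOG at 0.820 ± 0.130 CPM in control (SD, n = 3). After SOX2 siRNA 5 of the 13 were called lower and 4 higher, with a median log2 fold change of -0.14. Those lower were SOX2 itself, PRDM14 (-2.08), NANOG (-1.91), USP44 (-1.43) and PODXL (-0.97); those higher were LIN28A (0.70), LIN28B (0.59), DNMT3B (0.40) and POU5F1 (0.17), all as log2 fold changes. The part of these changes in the class I values was not tested. Of 15 blood cell markers 4 were tested; the pan-leukocyte gene PTPRC had 0 to 3 counts and CD3E, of T cells, 0 or 1. The summed level of the 15 was 3.94 to 16.7 CPM in control and 3.90 to 21.1 CPM in SOX2 siRNA libraries, most of it LYZ, with 48 to 542 counts. These are bulk libraries, so fewer cells with a transcript and less of it per cell cannot be told apart.

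Of the 8 tested class I genes, 6 were lower after SOX2 siRNA and none was higher. HLA-C, HLA-E, TAP1, TAP2, TAPBP and PSMB8 fell, while HLA-B and B2M did not pass the test. Here a gene is called when its Benjamini-Hochberg adjusted p in edgeR's quasi-likelihood test over all genes is under 0.05. SOX2 siRNA moved many genes: 28.2% of the 17592 tested genes were called, 13.4% lower and 14.8% higher. The 8 had a median log2 fold change of -0.36, against -0.00085 over all tested genes, and ranged from -0.88 (TAP1) to 0.16 (HLA-B). None changed by 2-fold or more. Control and SOX2 siRNA libraries were fully apart for 6 of the 8, and for 41.8% of all tested genes. HLA-C, HLA-E, TAP1, TAP2 and TAPBP were called lower under each of 15 alternative settings, which included each library left out in turn.

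**Figure D1:**
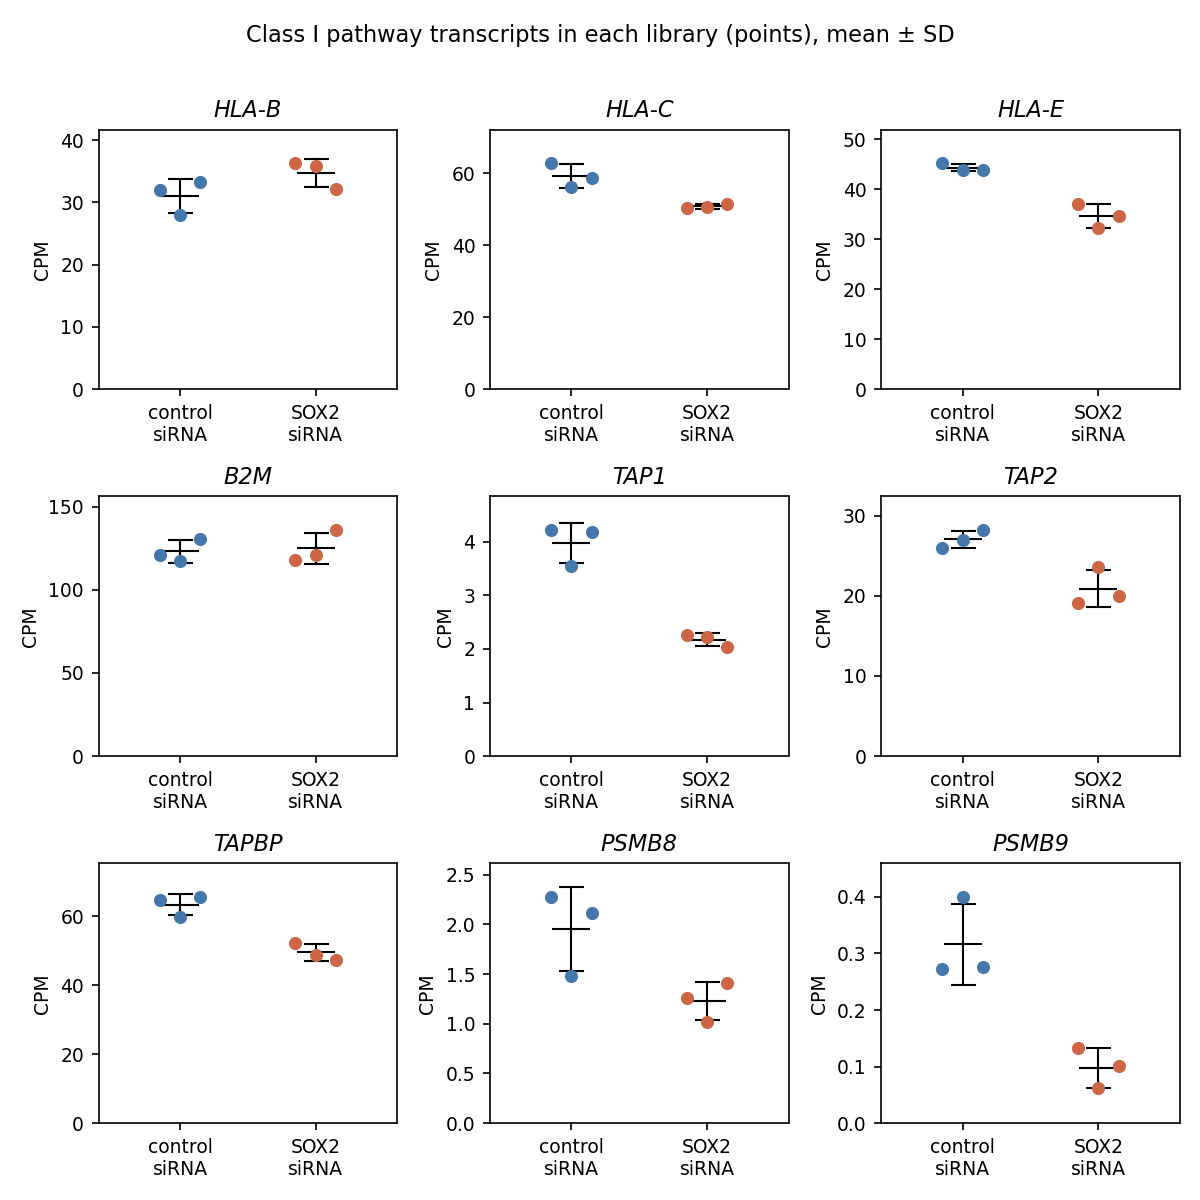
Level of each class I pathway transcript in CPM (linear axis from 0) in 3 control siRNA and 3 SOX2 siRNA libraries; points are libraries, bars the mean ± SD. The groups are separate for HLA-C, HLA-E, TAP1, TAP2, TAPBP, PSMB8 and PSMB9 and overlap for HLA-B and B2M; PSMB9 rests on 2 to 10 counts per library.

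Both genes of the transporter fell, and TAP1 had the lowest log2 fold change of the 8 tested genes. TAP1, at chr6:32845209-32853978 on the minus strand, encodes one chain of the peptide pump. It had 139, 89 and 121 counts in control and 68, 72 and 61 in SOX2 siRNA libraries, or 4.21, 3.55 and 4.19 against 2.25, 2.23 and 2.04 CPM. Every SOX2 siRNA library was below every control library. The mean fell from 3.98 ± 0.373 to 2.17 ± 0.115 CPM (SD, n = 3), leaving 54.6% of the control level (log2 fold change -0.88, SE 0.146; edgeR adjusted p = 2.07e-04). The other chain of the pump, TAP2, lies at chr6:32821833-32838780, also on the minus strand. It had 25.97, 27.0 and 28.2 CPM in control against 19.1, 23.5 and 20.02 CPM after SOX2 siRNA. The groups were apart, though SOX2 siRNA replicate 2 stood nearer to the controls than the other two. TAP2 fell to 77.3% of control (log2 fold change -0.37, SE 0.0719; edgeR adjusted p = 9.72e-04).

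TAP1 counts were 16.2%, 13.2% and 14.9% of TAP2 counts in control and 11.8%, 9.46% and 10.2% in SOX2 siRNA libraries. This ratio is taken within a library, so scaling between libraries does not touch it. The groups did not overlap, and the mean log2 ratio was lower by -0.49 after SOX2 siRNA (exact two-sided permutation p = 0.1, the smallest that 3 against 3 libraries allow; 0.15 after Benjamini-Hochberg adjustment over the 6 ratios examined).

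TAPBP, at chr6:33299694-33314387 on the minus strand, encodes tapasin. It had 64.8, 59.8 and 65.5 CPM in control against 52.2, 48.9 and 47.4 CPM after SOX2 siRNA, with no overlap. Its mean fell from 63.4 ± 3.11 to 49.5 ± 2.46 CPM (SD, n = 3), to 78.2% of control (log2 fold change -0.36, SE 0.0499; edgeR adjusted p = 3.26e-05). TAPBPL, which encodes a tapasin-related editor, had 45 to 85 counts in control and 58 to 60 in SOX2 siRNA libraries, and the groups overlapped.

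Both immunoproteasome genes lie beside TAP1 and TAP2 and were near the lower end of measurable expression. PSMB8, at chr6:32840717-32844703, replaces the PSMB5 subunit in the immunoproteasome. It had 75, 37 and 61 counts in control and 38, 33 and 42 in SOX2 siRNA libraries. In CPM these were 2.27, 1.48 and 2.11 against 1.26, 1.02 and 1.41, so the lowest control library stood just above the highest SOX2 siRNA library. PSMB8 fell to 62.9% of control (log2 fold change -0.68, SE 0.218; edgeR adjusted p = 0.0270). This call was lost in edgeR without control replicate 1 (adjusted p = 0.132), control replicate 3 (0.1003) or SOX2 siRNA replicate 2 (0.122), and in DESeq2's Wald test (adjusted p = 0.0996). Over its 15 alternatives the adjusted p of PSMB8 ranged from 0.0159 to 0.132.

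PSMB9, at chr6:32844136-32859585 on the plus strand, takes the place of PSMB6. It had 9, 10 and 8 counts in control and 4, 2 and 3 in SOX2 siRNA libraries, too few to pass the filter. Every SOX2 siRNA library was below every control library, but counts of 2 and 3 are at or under the 3-count floor. The summed counts, 27 against 9, gave a ratio of 0.313 per sequenced count (95% exact interval 0.129 to 0.685), which covers counting error only. With no filter beyond 1 count, the difference in PSMB9 was -1.63 on the log2 scale (SE 0.598; edgeR adjusted p = 0.0424 over 33956 genes), close to the threshold.

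None of the 3 standard catalytic subunits was called lower. PSMB5 had 102 ± 3.82 CPM in control against 111 ± 2.85 CPM after SOX2 siRNA (SD, n = 3; log2 fold change 0.12; edgeR adjusted p = 0.0357). This small rise was not called in edgeR without control replicate 2 (adjusted p = 0.124), control replicate 3 (0.122), SOX2 siRNA replicate 2 (0.101) or SOX2 siRNA replicate 3 (0.141), nor with upper-quartile scaling (0.0688) or by DESeq2 (0.0558). PSMB6 and PSMB7 had log2 fold changes of 0.11 and -0.062 and were not called (edgeR adjusted p = 0.0859 and 0.272). PSMB8 counts were 2.13%, 1.48% and 2.09% of PSMB5 counts in control and 1.16%, 0.924% and 1.23% in SOX2 siRNA libraries. PSMB9 counts were 0.398% to 0.613% of PSMB6 counts in control and 0.0877% to 0.194% in SOX2 siRNA libraries. Both ratios were apart between the groups (log2 differences -0.78 and -1.84; exact permutation p = 0.1 each, 0.15 adjusted over the 6 ratios). PSMB10, the third exchangeable subunit, was 3.65% to 4.08% of PSMB7 in control and 3.46% to 3.77% in SOX2 siRNA libraries, and its groups overlapped (log2 difference -0.12; exact permutation p = 0.2). PSMB10 itself had a log2 fold change of -0.18 (95% interval -0.44 to 0.080; edgeR adjusted p = 0.310).

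**Figure D2:**
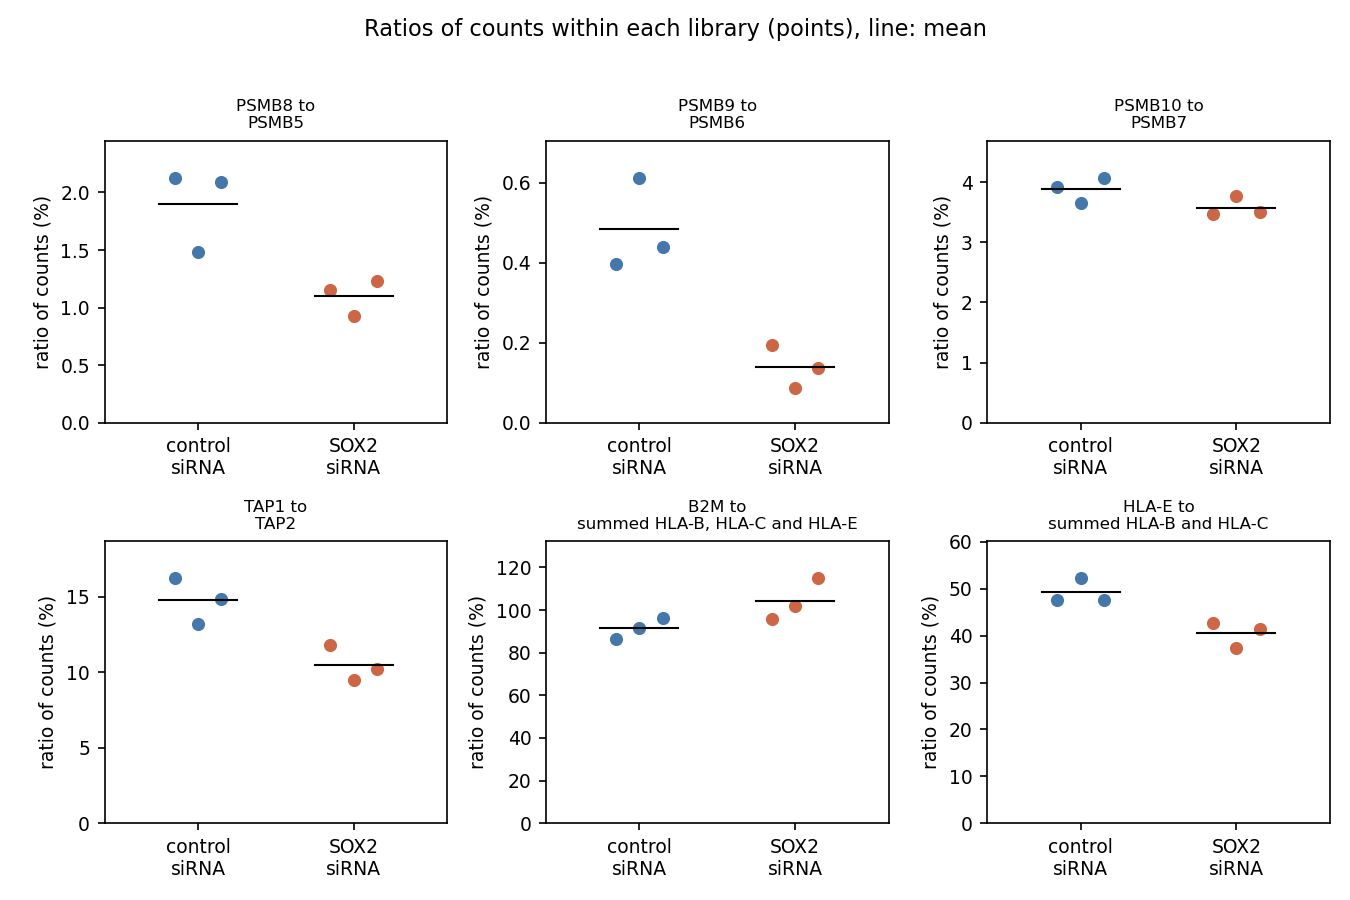
Ratios of counts within each library, in percent (linear axes from 0), for 3 control siRNA and 3 SOX2 siRNA libraries; points are libraries and lines the means. PSMB8 to PSMB5, PSMB9 to PSMB6, TAP1 to TAP2 and HLA-E to HLA-B plus HLA-C were lower in every SOX2 siRNA library; the other 2 ratios overlapped.

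Of the 3 heavy chain genes, HLA-E and HLA-C fell and HLA-B was not called. HLA-E, at chr6:30489467-30494205 on the plus strand, encodes a non-classical molecule that presents class I leader peptides to natural killer (NK) cell receptors. It had 45.1, 43.9 and 43.8 CPM in control against 37.0, 32.2 and 34.5 CPM after SOX2 siRNA. The groups were well apart, and HLA-E fell to 78.1% of control (log2 fold change -0.36, SE 0.0536; edgeR adjusted p = 6.88e-05). HLA-C, at chr6:31268749-31272130 on the minus strand, encodes a classical molecule that is also a main ligand of NK cell receptors. It had 62.7, 56.0 and 58.7 CPM in control against 50.3, 50.4 and 51.4 CPM after SOX2 siRNA. The groups did not overlap, and HLA-C fell to 85.7% of control (log2 fold change -0.22, SE 0.0476; edgeR adjusted p = 0.00173).

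HLA-B, a classical heavy chain gene annotated at chr6:31269491-31357188 on the minus strand, had 32.0, 27.98 and 33.2 CPM in control against 36.3, 35.8 and 32.1 CPM after SOX2 siRNA. SOX2 siRNA replicate 3 lay within the control range. The log2 fold change was 0.16 (95% interval 0.016 to 0.30), and it was not called (edgeR adjusted p = 0.0923). Without SOX2 siRNA replicate 3, or with no filter on low counts, HLA-B was called higher at 0.21 and 0.16 (edgeR adjusted p = 0.0250 and 0.0259; range over all its alternatives 0.0250 to 0.354). HLA-E counts were 47.7%, 52.3% and 47.7% of the summed HLA-B and HLA-C counts in control and 42.8%, 37.4% and 41.4% in SOX2 siRNA libraries (log2 difference -0.28; exact permutation p = 0.1, 0.15 adjusted over the 6 ratios).

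Reads can be exchanged between heavy chain genes, which share sequence. In GENCODE 29 transcripts, 15.1% of the 31-base stretches of HLA-B, 19.3% of those of HLA-C and 11.5% of those of HLA-E also occur in another gene. These genes are also highly variable between people, and how well the alleles of PA1 match the reference used for counting was not tested. The sum of HLA-B, HLA-C and HLA-E does not depend on how reads were divided among them. The sum was 134 ± 6.05 CPM in control and fell to 120 ± 3.09 (SD, n = 3; log2 fold change -0.17, SE 0.0407; edgeR adjusted p = 0.00540). Summing all 18 class I heavy chain genes and pseudogenes in the table gave -0.15 (edgeR adjusted p = 0.0156).

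B2M, at chr15:44711487-44718877 on the plus strand, encodes the light chain that every class I molecule needs to reach the cell surface. It had 121, 117 and 131 CPM in control against 118, 121 and 136 CPM after SOX2 siRNA. The values were interleaved, and the log2 fold change was 0.021 (95% interval -0.10 to 0.14; edgeR adjusted p = 0.825). A fall of the size seen in TAPBP or HLA-E lies outside that interval. The sign of this small difference turned without control replicate 2 (-0.011) and without SOX2 siRNA replicate 3 (-0.045). B2M counts were 86.7%, 91.7% and 96.3% of the summed HLA-B, HLA-C and HLA-E counts in control and 95.6%, 102% and 115% in SOX2 siRNA libraries, and the groups overlapped (log2 difference 0.18; exact permutation p = 0.2).

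Per length of exon, the order of levels ran from the light chain down to the immunoproteasome. In control libraries B2M had 51.7 ± 2.89, HLA-C 38.1 ± 2.15, HLA-B 18.1 ± 1.595, HLA-E 17.0 ± 0.284 and TAPBP 15.1 ± 0.741 CPM per kilobase (SD, n = 3). TAP2 followed at 4.38 ± 0.178, TAP1 at 1.35 ± 0.126, PSMB8 at 1.26 ± 0.271 and PSMB9 at 0.331 ± 0.0752 CPM per kilobase. The ranges of HLA-B and HLA-E overlapped, as did those of TAP1 and PSMB8; the other neighbours in this order were apart. In SOX2 siRNA libraries HLA-B, at 20.2 ± 1.33, stood apart from HLA-E, at 13.3 ± 0.925 CPM per kilobase. The standard subunits were far above their replacements, with PSMB5 at 65.8 ± 2.45, PSMB6 at 75.2 ± 3.22 and PSMB7 at 102 ± 2.36 CPM per kilobase in control, while PSMB10 was at 3.51 ± 0.202.

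**Figure D3:**
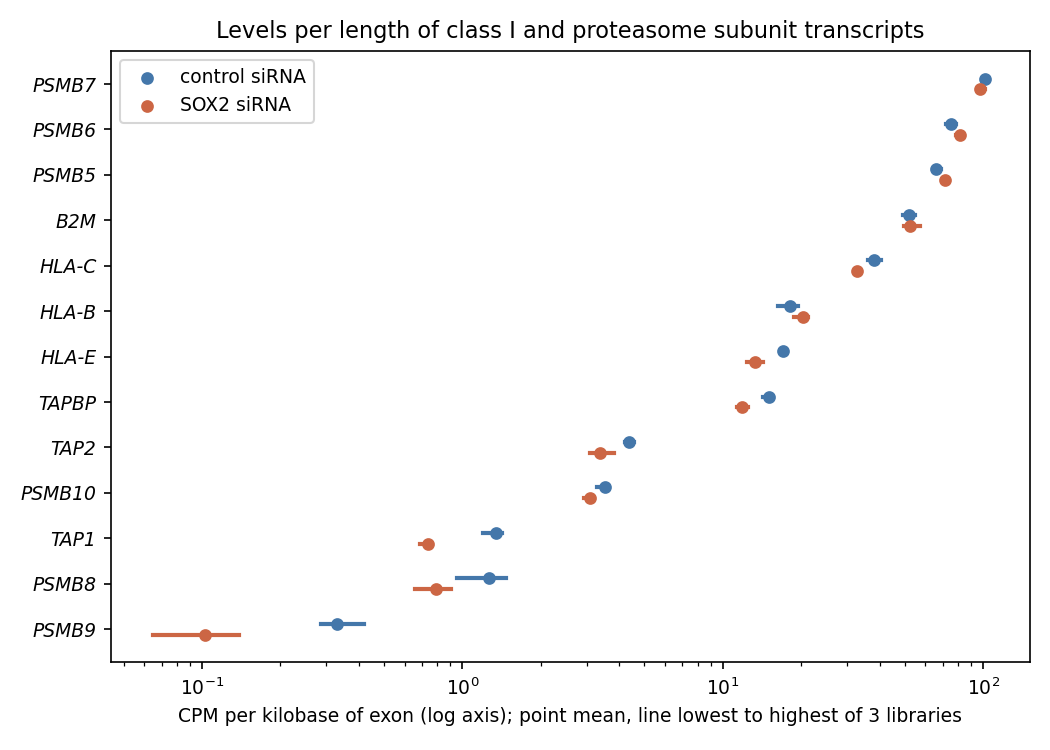
Level per kilobase of exon (log axis) of the class I pathway genes and of the proteasome subunits PSMB5, PSMB6, PSMB7 and PSMB10; points are means and lines run from the lowest to the highest of 3 libraries. In control, B2M stood at 51.7 and PSMB9 at 0.331 CPM per kilobase, and the SOX2 siRNA points of TAP1, PSMB8 and PSMB9 lie to the left of their control points.

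The promoters were searched because several genes of this pathway fell together, and the interferon-stimulated response element (ISRE), where IRF factors bind, is a known feature they share. Windows from 250 bases before to 50 bases after the RefSeq start (GRCh38.p14) were on hand for 8 of the 9 genes, all but HLA-E; the submitters' processing notes name GRCh38.p13. The motif, GAAA and again GAAA with any 2 bases between them, on either strand, was in a window of 5 of the 8 (TAP1, TAP2, TAPBP, PSMB8 and B2M) and in 3.57% of all 35116 windows. TAP1 and PSMB8 have 2 windows each, with the motif in 1 of them. Here and below, a gene was counted if any of its windows matched, while the shares are per window. The 30 bases around each match are given on the strand that reads GAAA, with the matches in capitals; TAP1, TAPBP and B2M hold overlapping matches.
TAP1 (chr6:32853816-32853845, plus strand): tttagggGAAAGCGAAATCGAAAgcggccg
TAP2 (chr6:32838778-32838807, minus strand): ctggggaagcGAAAGCGAAAgctgcccgag
TAPBP (chr6:33314076-33314105, minus strand): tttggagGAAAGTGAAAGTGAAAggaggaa
PSMB8 (chr6:32844032-32844061, plus strand): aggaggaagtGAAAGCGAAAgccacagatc
B2M (chr15:44711366-44711395, plus strand): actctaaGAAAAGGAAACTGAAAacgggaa

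The motif is in 4 genes that fell and in B2M, which was not called. The stretch of TAP1 lies 141 to 112 bases and that of B2M 151 to 122 bases upstream of the start. Those of TAP2 (68 to 39 bases upstream), TAPBP and PSMB8 lie nearer to it, and the last 2 reach past the start. PSMB9, HLA-B and HLA-C had no match to this pattern in their windows. Looser forms of the ISRE were not searched for, so a missing match does not show that an ISRE is absent. The window of PSMB9 does not reach the stretch shown for its neighbour TAP1. These are matches of letters, and no measurement of binding was made.

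The same motif stands in the windows of 5 further genes of the pathway. PSME1 and PSME2 encode the proteasome activator PA28, and ERAP1 and ERAP2 the ER aminopeptidases that trim peptides to the length class I holds; all 4 fell. PSMB10 was not called.
PSME1 (chr14:24136189-24136218, minus strand): accgcgaaggGAAAGCGAAAgcggtagggc
PSME2 (chr14:24146619-24146648, minus strand): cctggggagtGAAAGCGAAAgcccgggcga
PSMB10 (chr16:67936852-67936881, minus strand): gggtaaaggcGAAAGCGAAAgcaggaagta
ERAP1 (chr5:96807924-96807953, plus strand): ccccaggaccGAAAGTGAAAgtggagcccg
ERAP2 (chr5:96876460-96876489, plus strand): tcttagaacaGAAAGTGAAAgcaaaagtaa

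HLA-B and HLA-C, of which HLA-C alone was called, are shown for a different element. Class I heavy chain promoters carry a module read by RFX, CREB/ATF and NFY factors together with NLRC5, and its X2 core (TGACG) and its Y box (ATTGG, read on the other strand as CCAAT) are in capitals. The stretches run from 160 to 51 bases upstream of the start, on the minus strand.
HLA-B (chr6:31357230-31357339): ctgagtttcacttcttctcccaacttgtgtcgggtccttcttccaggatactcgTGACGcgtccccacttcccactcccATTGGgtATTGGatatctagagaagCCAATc
HLA-C (chr6:31272143-31272252): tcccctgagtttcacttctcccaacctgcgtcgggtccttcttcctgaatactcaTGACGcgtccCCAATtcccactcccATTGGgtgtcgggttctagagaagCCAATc

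Each stretch holds 1 X2 core and 3 Y box matches; the first Y box of HLA-C reads in the opposite sense to that of HLA-B. The reference sequence need not be that of PA1. The X2 core was in windows of 6 of the 8 genes (also B2M, PSMB8, PSMB9 and TAP2) and in 24.6% of all windows. The Y box was in windows of 5 of the 8 (also B2M, PSMB9 and TAP1) and in 34.6% of all windows. Of the other motifs searched on both strands, the SOX core ACAATG was in none of the 8 genes' windows and in 10.8% of all windows. Of the 5 further genes, ERAP1 and ERAP2 each had 1 match to it, in the one of their 2 windows that is not shown above. GAS, TTCNNNGAA, was in those of TAP1 and PSMB8 (7.66% of all windows), and the NF-kB motif, GGGA and TTCC with any 2 bases between them, in those of TAP1 and B2M (1.61%). The GC box GGGCGG was in 6 of the 8 (45.0% of all windows).

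Among regulators, the class I transactivator was lower. NLRC5 had 96, 62 and 71 counts in control and 43, 47 and 60 in SOX2 siRNA libraries, or 2.61 ± 0.256 against 1.63 ± 0.329 CPM (SD, n = 3). It fell (log2 fold change -0.69, SE 0.187; edgeR adjusted p = 0.0105). In CPM the groups did not overlap, but the call was lost in edgeR without control replicate 1 (adjusted p = 0.0578) or SOX2 siRNA replicate 2 (0.0523). IRF1, an activator that binds the ISRE, had 7.17 ± 0.716 CPM in control against 7.07 ± 0.697 CPM after SOX2 siRNA (SD, n = 3). The difference was -0.025 on the log2 scale (edgeR adjusted p = 0.894); it turned positive without control replicate 1 (0.061) or SOX2 siRNA replicate 2 (0.034).

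Of 24 tested transcription regulators of class I genes, 6 were called higher and 3 lower, with a median log2 fold change of 0.030. NFYA, RFXANK and RFXAP, subunits of the factors at the Y and X boxes, rose by 0.33, 0.32 and 0.32 on the log2 scale (edgeR adjusted p = 1.85e-05, 0.00124 and 0.00591). USF1 and RELA, the latter a subunit of NF-kB, rose by 0.31 and 0.29 (edgeR adjusted p = 8.54e-04 and 0.00198). RFX5, which completes the RFX complex, had 68.9 CPM in control and 69.0 in SOX2 siRNA libraries. Of 14 tested genes of interferon signalling, with a median of 0.061, the receptor chain gene IFNGR2 was called higher (log2 fold change 0.37; edgeR adjusted p = 6.58e-05).

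In the ER, both peptide-trimming genes fell. ERAP1 had 93.7, 103 and 104 CPM in control against 66.3, 65.4 and 65.9 CPM after SOX2 siRNA, with no overlap (log2 fold change -0.60, SE 0.0449; edgeR adjusted p = 1.53e-08). ERAP2 had 13.5, 12.3 and 13.4 CPM in control against 6.53, 5.35 and 6.13 CPM after SOX2 siRNA (log2 fold change -1.13, SE 0.0914; edgeR adjusted p = 4.64e-08). The chaperone genes CALR and HSPA5 rose by 0.27 and 0.17 and CANX fell by 0.14 on the log2 scale (edgeR adjusted p = 6.75e-06, 8.71e-04 and 0.00668). Of the 15 genes of this list, all tested, 4 were called higher and 3 lower.

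In the cytosol, PSME1 had 60.3, 53.2 and 53.9 CPM in control against 43.9, 45.5 and 42.9 CPM after SOX2 siRNA. It fell by 0.34 and PSME2 by 0.21 on the log2 scale (edgeR adjusted p = 9.14e-05 and 0.00317). They were the 2 called of the 4 other immunoproteasome-linked genes. Of the 14 genes of the standard proteasome core, 4 were called higher and none lower, with a median of 0.081. The count of 4 fell to 1 with upper-quartile scaling and without control replicate 2, control replicate 3, SOX2 siRNA replicate 2 or SOX2 siRNA replicate 3. Of 8 cytosolic peptidases, BLMH and LNPEP rose (0.29 and 0.21) and IDE and LAP3 fell (-0.17 and -0.16; edgeR adjusted p = 3.37e-05, 0.00197, 0.00321 and 0.0126). Without control replicate 3, LAP3 was not called (edgeR adjusted p = 0.0643).

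**Figure D4:**
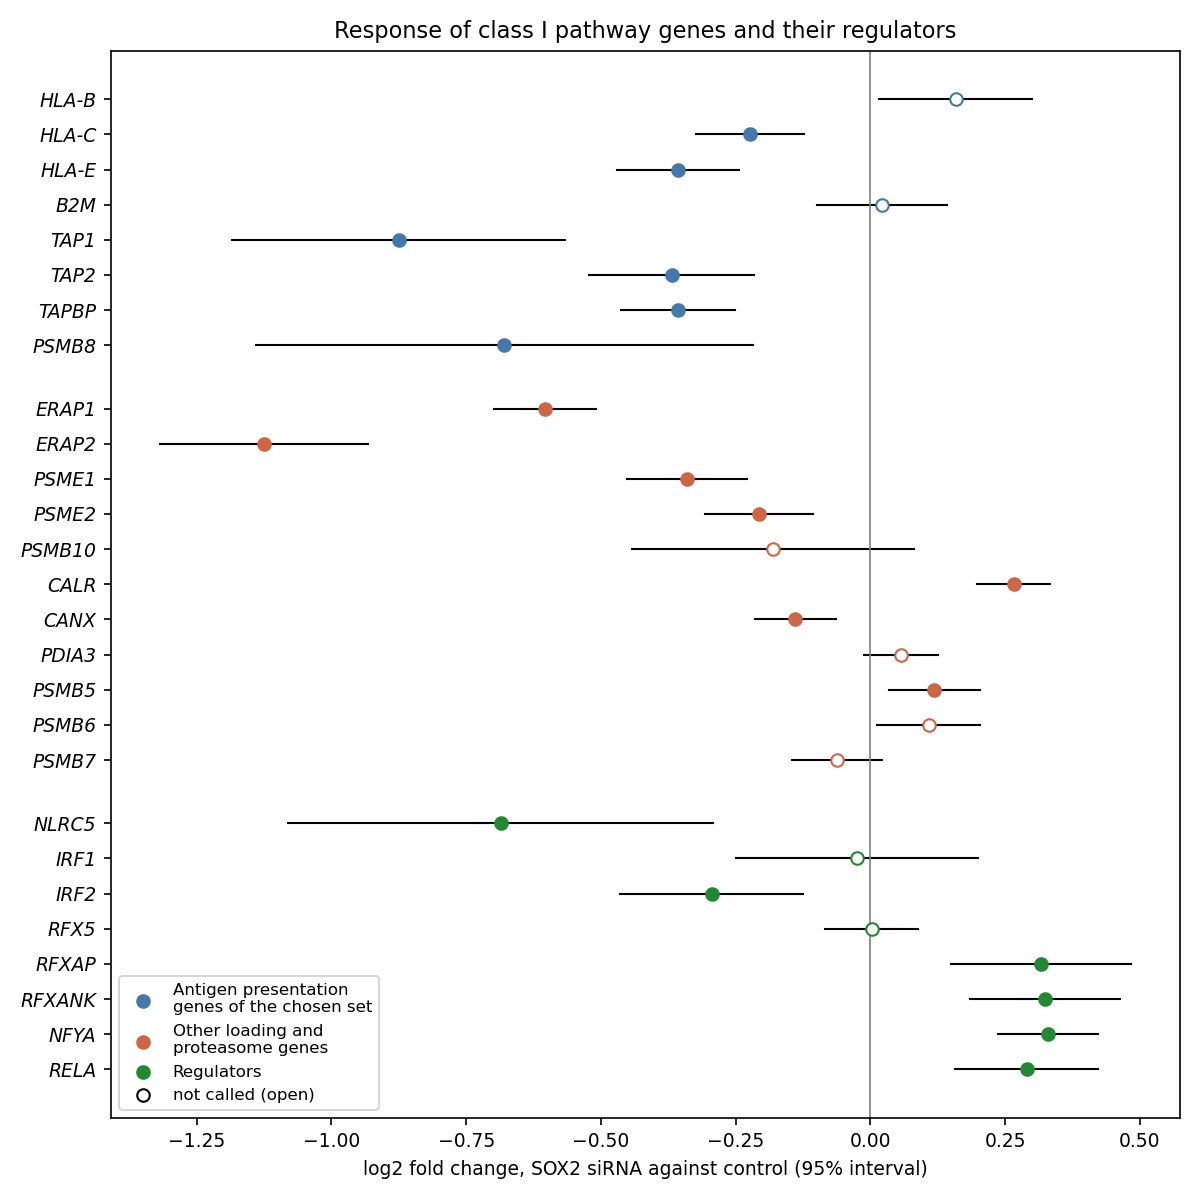
Log2 fold change of SOX2 siRNA against control with its 95% interval (edgeR) for the 8 tested class I genes, other loading and proteasome genes, and regulators; filled points were called and open points were not. Called genes of the first group all lie left of 0, from HLA-C at -0.22 to TAP1 at -0.88, while CALR at 0.27 and NFYA at 0.33 lie to the right.

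Surface turnover and neighbouring systems gave values in both directions. MARCHF4 and MARCHF9 encode membrane ubiquitin ligases known to remove class I molecules from the surface when overexpressed. MARCHF4 had 57, 36 and 66 counts in control and 370, 384 and 432 in SOX2 siRNA libraries (log2 fold change 2.81, SE 0.139; edgeR adjusted p = 1.80e-10). MARCHF9 rose from 7.06 to 10.1 CPM (log2 fold change 0.52; edgeR adjusted p = 7.26e-04). With ARF1, these were the 3 called of 11 genes of class I traffic. Among 14 tested stress and checkpoint ligands, mostly of NK and T cell receptors, 2 were called higher and 4 lower. CD47, a signal that restrains phagocytes, rose from 135 to 242 CPM, and NCR3LG1, a ligand of the NK receptor NKp30, fell from 13.8 to 10.2 CPM (log2 fold changes 0.84 and -0.44; edgeR adjusted p = 2.19e-10 and 6.69e-04).

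Of 15 genes of the class II pathway 7 were tested. CD74, the class II invariant chain gene, rose from 15.5 to 19.7 CPM and HLA-DMB fell from 8.93 to 7.36 CPM (log2 fold changes 0.34 and -0.28; edgeR adjusted p = 0.00747 and 0.0254). HLA-DMB was not called in edgeR without control replicate 1 (adjusted p = 0.0780), control replicate 2 (0.0824) or SOX2 siRNA replicate 3 (0.0725), nor by DESeq2 (0.117). HLA-DRA had 0 or 1 count in each library, and the class II transactivator CIITA 1 to 4 counts. Of 30 genes of other roles that lie among or beside the MHC genes on chromosome 6, 7 were called higher and 1 lower, with a median log2 fold change of 0.041. They include RGL2, which lies next to TAPBP and rose by 0.25 on the log2 scale (edgeR adjusted p = 9.79e-04). FCGRT, the neonatal Fc receptor gene, was the 1 called of 5 other tested heavy chain and class I-like genes (0.37; edgeR adjusted p = 0.0346), and lost the call in 8 of 15 alternatives.

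None of the 4 tested blood cell markers was called lower. AIF1 and CD14, at under 2 CPM in every library, had log2 fold changes of 0.70 and 0.87 (edgeR adjusted p = 0.0422 and 0.0428); these calls were lost without any 1 of the 6 libraries. Markers of fibroblasts and endothelium summed to 474 to 529 CPM in control against 632 to 672 CPM after SOX2 siRNA, with 3 of 8 tested markers called higher and 3 lower. Their part in the class I values was not tested.

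Pearson correlations of log2 CPM over the 6 libraries among the 6 called genes ranged from 0.593 (TAP2 and PSMB8) to 0.987 (TAP1 and TAPBP), whereas HLA-B had -0.60 with HLA-E and B2M -0.011 with HLA-C. The libraries share a group difference, and these are descriptions only. The mean of the 8 tested genes, each centred on its own mean, stood at 0.22, 0.049 and 0.22 on the log2 scale for control replicates 1 to 3, against -0.15, -0.18 and -0.16 after SOX2 siRNA. Control replicate 2 stood nearest to the SOX2 siRNA libraries. Genes most like this mean, by Pearson correlation among 12113 genes, included SNRPN (0.998), PITPNC1 (0.996), BCL2L13 (0.996) and DLX5 (0.996), and 216 genes were above 0.95.

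Some of these rows carry limits of annotation. In GENCODE 29, TAP2 shares 33.4% of its exon bases with AL669918.1, annotated as protein-coding on the same strand, which had 36 to 49 counts per library against 578 to 857 for TAP2. PSMB8 and TAP1 share 27.4% and 15.4% of their exon bases with PSMB8-AS1 on the other strand, and the use of strand in counting is not given in the sources used here. PSMB8-AS1 had 9, 6 and 7 counts in control and 2, 4 and 3 in SOX2 siRNA libraries. PSMB9 shares 18.2% of its exon bases with PSMB8-AS1 on the same strand, and PSMB10 44.5% with AC040162.1. PSMB9 also shares 14.5% of its exon bases with PSMB8 on the other strand, so these rows may not be fully separate. HLA-B shares 29.2% with AL671883.2 on the other strand, which had 0 to 2 counts. The annotated span of HLA-B also reaches into HLA-C, with which it shares 2.04% of its exon bases on the same strand.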

How the data were processed

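Messenger RNA of 6 libraries (KAPA mRNA HyperPrep kit, per the labels' protocols) was deposited as whole-number counts per gene symbol; the submitters' processing notes name bcl2fastq 2.20.0, STAR 2.7.3a, Salmon 0.14.1, DESeq2 1.28.1 and GRCh38.p13, with no roles given. The program that counted, its use of strand and the annotation are not given in the sources used here. The members, gene lists and motifs were chosen with earlier results of these data known. Columns were matched to libraries by the identifier in each description.

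From these counts, genes were kept by filterByExpr (minimum count 10), scaled by TMM and tested with edgeR 4.0.16 (glmQLFit with robust=TRUE, glmQLFTest; R 4.3.3) on group, with Benjamini-Hochberg adjustment over 17592 genes. SEs and 95% intervals come from the same fit. PCR reads are not independent molecules, so floors and counting intervals cover counting error only. Single ratios were compared by exact permutation (scipy 1.17.1). Alternatives were DESeq2 1.42.0 size factors and Wald test, limma-voom (limma 3.58.1), upper-quartile and total-count scaling, other filters, robust=FALSE, each library left out, and a replicate block. The fit was tested on simulated data. Gene positions and exon lengths (all exons of coding transcripts) are from GENCODE 29, on GRCh38. Named genes are SOX2, the members, the genes of the ratios, NLRC5, IRF1, the called genes with the smallest p in each list (4 at most), and the 5 genes most like the members' mean; RFXAP, RFX5, TAPBPL, USP44, LIN28B, DNMT3B, NANOG, POU5F1, PTPRC, CD3E, LYZ, HLA-DRA, CIITA, AL669918.1, PSMB8-AS1, AL671883.2 and AC040162.1 were chosen after their values were seen, and some genes that meet the rule are given as counts only or are not reported here. Replicate pairs differed by a chi-square of 2.77 to 5.91 per degree of freedom, above counting noise in each pair.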

Additional observations from a re-analysis of the deposited data

How the results depend on the processing

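HLA-C, HLA-E, TAP1, TAP2 and TAPBP kept their direction and call in all 75 alternative values, and SOX2 and the summed heavy chains in each of theirs. The members called lower numbered 5 to 7. PSMB8 lost its call with DESeq2's Wald test (-0.68) and in 3 of the 6 fits without one library (-0.84 to -0.55). HLA-B was called higher with no filter (0.16), so that 1 member was called higher, and without SOX2 siRNA replicate 3 (0.21); its values without one library ran from 0.092 to 0.21. B2M ran from -0.045 to 0.067 over these fits, reversing without control replicate 2 (-0.011) and SOX2 siRNA replicate 3 (-0.045), and the members called higher from 0 to 1. IRF1 ran from -0.107 to 0.0612 over the same fits and reversed without control replicate 1 (0.061) and SOX2 siRNA replicate 2 (0.034). The cause was not tested.

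Counts of called genes in the lists moved as follows. The other heavy chain and class I-like genes (1 called) had 0 with upper-quartile scaling, DESeq2's Wald test, limma-voom and robust=FALSE, and 2 with no filter and with the replicate block. The standard proteasome core (4) had 1 with upper-quartile scaling. Blood cell markers (2) had 0 with no filter, DESeq2's Wald test and the replicate block, and 1 with at least 10 counts in every library. Class II genes (2) had 1 and stress and checkpoint ligands (6) had 3 with DESeq2's Wald test. Without one library, these 5 lists had 0 to 1, 1 to 6, 0, 1 to 2 and 3 to 5, interferon signalling 2 to 4, and the MHC neighbours 3 to 6. Of 793 alternative values of 53 genes outside the set, 59 lost the call, 1 gained it and 2 reversed.

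With the replicate number as a block, TAP1 had a log2 fold change of -0.87 and 5177 genes were called, and no member's call changed. Same-numbered libraries did not deviate together (correlations 0.087, -0.038 and -0.031 over 17592 genes), so the numbers were not taken to pair the libraries. All genes called ranged from 3760 (without SOX2 siRNA replicate 2) to 5212, and upper-quartile scaling changed the split of calls from 2599 higher and 2365 lower to 2311 and 2734. Depth limits PSMB9, PSMB8, TAP1 and NLRC5, which had under 150 counts in each library.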
